A study of Mus musculus with 4 samples.

Results

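Expression of the lysosomal proton pump, cathepsins, other lysosomal enzymes and membrane proteins, and of the transcription factors that drive them, was examined in epididymal fat of mice with and without CD1d. The 41 genes were listed by name and role, with earlier results of these data known. Of them, 39 had a probe set that the platform annotation pairs with 1 gene symbol, out of 18820 such genes, and all 39 lay above the level filter that left 11292 genes for testing. Ctsb was carried by 2 probe sets that also name Fdft1, and no probe set was listed with the symbol Atp6v0c, so neither is reported. The study concerns CD1d-restricted natural killer T (NKT) cells, which recognise lipids bound to the antigen-presenting molecule CD1d, and insulin resistance in lean mice. There were 2 arrays of CD1d-/- (KO) fat on the low-fat diet, 1 of wild type (WT) fat on the high-fat diet and 1 of WT fat on the low-fat diet. They are called KO array 1, KO array 2, the WT high-fat array and the WT low-fat array. The low-fat diet held 10 kcal% fat and the high-fat diet 45 kcal%, and mice ate them for 18 to 19 weeks, starting when 10 to 11 weeks old. All mice were of the C57BL/6 strain, the null allele after 10 to 12 generations of backcrossing. The null allele is present in every cell of the KO mice. Each array held pooled RNA of 4 to 6 mice per group, and nothing says whether the KO arrays came from separate pools, so the spread between them may be technical or biological.

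Lysosomes are acidic compartments in which proteins, lipids and sugars taken up or recycled by the cell are broken down. The vacuolar proton pump acidifies them, with a cytosolic V1 sector that splits ATP and a membrane-embedded V0 sector that carries the protons. Cathepsins and glycosidases work at the low pH this creates, glycosylated membrane proteins line the compartment, and the MiT family of transcription factors, with TFEB as its best known member, switches on many of these genes together. In fat, macrophages that take up lipid are rich in lysosomes, while fat cells use them to recycle their own contents.

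Levels are log2 intensities, so a difference of 1 is 2-fold, and levels of different genes are not compared, since each rests on its own probes. The median level over all 35556 probe sets lay between 5.68 and 5.71 on the 4 arrays. Over the 11292 tested genes, the median differences from the WT low-fat array were −0.17 for KO array 1, −0.02 for KO array 2 and 0.05 for the WT high-fat array. KO array 2 minus KO array 1 had a median of 0.14. Cd1d1 was at 3.74 and 3.98 on KO arrays 1 and 2, against 11.80 on the WT high-fat array and 11.80 on the WT low-fat array, so the genotype labels hold. The fat cell genes Cidec and Fabp4 lay between 13.16 and 13.33 on every array, so the tissue is fat on all 4. All 13 tested epididymis markers were at least 1.5-fold lower on the WT high-fat array and on KO array 1 than on the WT low-fat array, and 12 of 13 on KO array 2. In limma 4 of the 13 fell in KO fat against WT low-fat fat. These markers of the neighbouring duct differed between the arrays beside every comparison given here, and their part in it was not tested. In pooled tissue, more cells of a type and more RNA per cell cannot be told apart.

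Lysosomal genes were mostly higher on the WT high-fat array and on KO array 2, and mostly lower on KO array 1, than on the WT low-fat array. At 1.5-fold or more, 11 of 39 were higher on the WT high-fat array and 0 were lower, beside 7.72% and 3.82% of all tested genes. On KO array 2, 10 of 39 were higher than on the WT low-fat array (5.54% of all tested genes) and 0 were lower (4.60%). On KO array 1, 0 were higher (1.93%) and 2 were lower (5.02%). These 3 comparisons share the WT low-fat array. The 39 genes had median differences from it of −0.25 for KO array 1, 0.32 for KO array 2 and 0.40 for the WT high-fat array. Relative to all tested genes, these medians were −0.08, 0.34 and 0.35. The sign on KO array 1 depended on the scaling for many genes. Of 35 genes below the WT low-fat array there, 12 lay above it with each array centred on its median over the tested genes, namely Atp6v0a1, Tcirg1, Atp6v1g1, Atp6v1h, Ctsf, Ctsh, Ctsa, Ctsd, Asah1, Lamp1, Lamp2 and Cd63. KO array 1 gave the lowest of the 4 levels for 33 of 39 genes, where it did so for 56.7% of all tested genes. The WT high-fat array gave the highest level for 25 of 39 (44.0% of all tested genes), KO array 2 for 9 (13.6%), the WT low-fat array for 4 (27.9%) and KO array 1 for 1 (14.5%). The lowest level lay on the WT low-fat array for 3 genes (7.91%), on KO array 2 for 2 (23.7%) and on the WT high-fat array for 1 (11.7%).

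**Figure D1:**
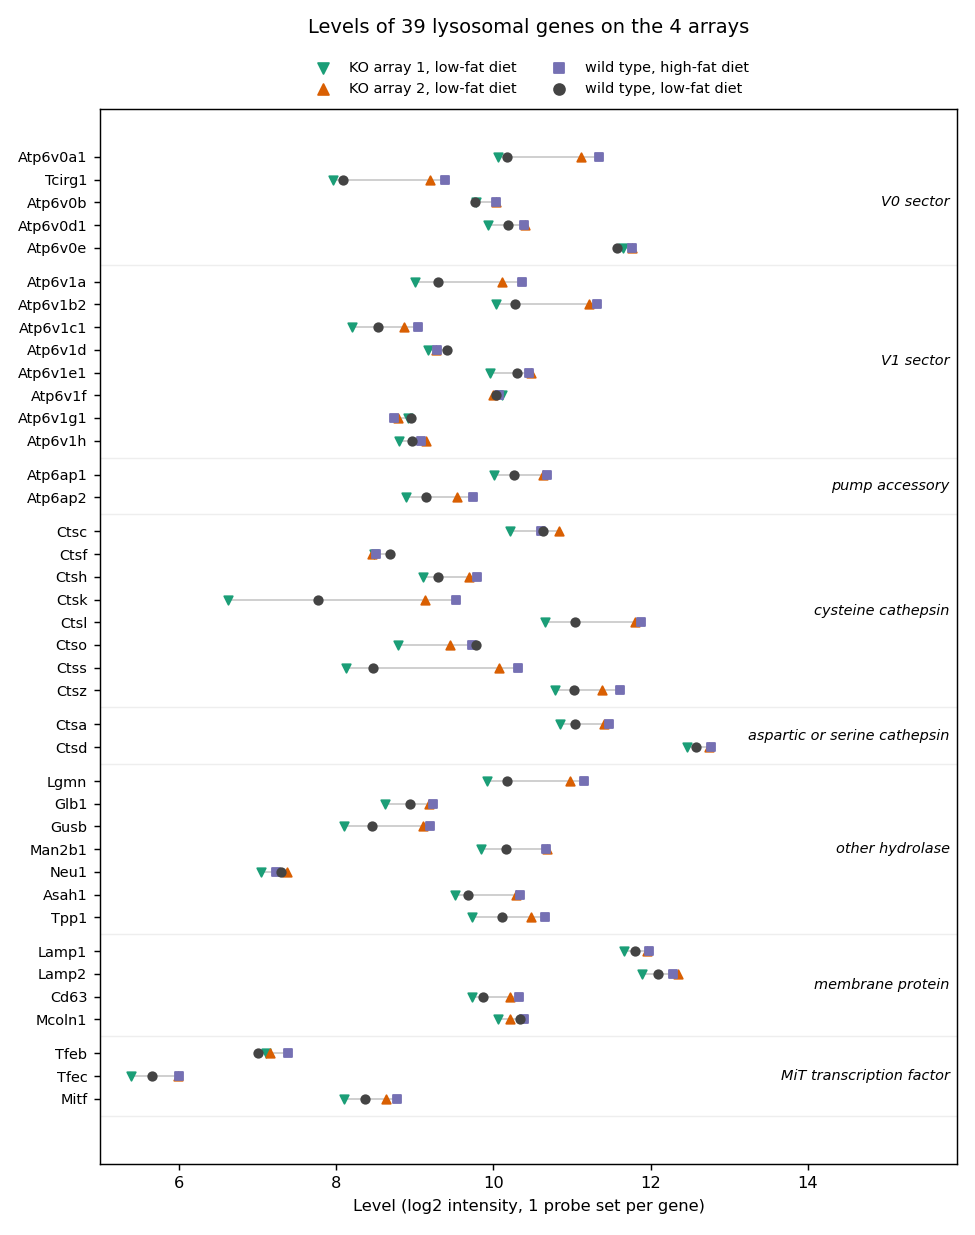
Levels of the 39 measured lysosomal genes (log2 intensity, horizontal axis), grouped by role, with 1 symbol per array and a grey line over the range of the 4 arrays. KO array 1 is the leftmost symbol for 33 of 39 genes, and KO array 2 and the WT high-fat array lie within 1.5-fold of each other for all 39.

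The first comparison asks whether fat without CD1d differed from wild type fat on the same low-fat diet. No lysosomal gene passed the test. In limma, 0 of 39 had an adjusted p under 0.05, where 0.0443% of all tested genes did, and each of the 39 had an adjusted p = 1. At an unadjusted p under 0.05 the count was also 0 of 39, beside 0.815% of all tested genes. For 30 of the 39 genes the WT low-fat array lay between the KO arrays, with KO array 1 below it and KO array 2 above it (37.1% of all tested genes). By size, 0 of 39 were at least 1.5-fold higher on both KO arrays (0.584% of all tested genes) and 0 were lower on both (0.770%). The median difference of the KO mean from the WT low-fat array was 0.05, beside −0.09 over all tested genes, or 0.14 relative to them. It was 0.32 without KO array 1 and −0.25 without KO array 2, beside −0.02 and −0.17 over all tested genes. A p over the threshold does not show that the genotypes were alike, since the error in this fit comes from a single pair of arrays.

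Ctso, a cysteine cathepsin of broad expression, came nearest to a shared difference. It was at 8.79 and 9.45 on KO arrays 1 and 2 (mean 9.12 ± 0.47, SD, n = 2), against 9.73 on the WT high-fat array and 9.78 on the WT low-fat array. Both KO levels lay under both wild type levels, as they also did for Ctsf, Atp6v1d and Mcoln1. The share of all tested genes with this order is not given. The difference of the KO mean from the WT low-fat array was −0.66 with a standard error of 0.39, and limma gave an adjusted p = 1. Its unadjusted p was the lowest of the 39 genes. Ctso lies on chromosome 3, as do Cd1d1 itself and the cathepsin genes Ctsk and Ctss. These were the only 3 of the 41 genes on that chromosome. Beside Ctso, 4 genes were lower on both KO arrays than on the WT low-fat array, Ctsf, Atp6v1d, Atp6v1g1 and Mcoln1, and both KO arrays lay below it for 40.5% of all tested genes. For Atp6v1g1 the KO array 1 difference of −0.04 became 0.07 after quantile normalization. Another 3, Atp6v0b, Atp6v0e and Tfeb, were higher on both (9.74%), each by at most 0.27.

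None of the 3 MiT transcription factors was 1.5-fold apart between the diets. Tfeb, which moves to the nucleus when lysosomes are stressed or nutrients are short, was at 7.11 and 7.16 on KO arrays 1 and 2 and 7.39 on the WT high-fat array, against 7.01 on the WT low-fat array. Mitf, the family member best known from pigment cells and osteoclasts, was at 8.10 and 8.63 on the KO arrays and 8.77 on the WT high-fat array, against 8.37 on the WT low-fat array. A second Mitf probe set, between 3.69 and 3.88 on all arrays, lay near the bottom of the range. Tfec, a family member of the macrophage lineage, was at 5.39 and 5.99 on the KO arrays and 6.01 on the WT high-fat array, against 5.66 on the WT low-fat array. Its levels on KO array 1 and the WT low-fat array lay under the medians of all probe sets, so its differences rest on low signal. On the WT high-fat array the 3 genes were 1.30-fold, 1.32-fold and 1.27-fold higher for Tfeb, Mitf and Tfec, below the 1.5-fold mark. Between the KO arrays, Tfec was 1.51-fold higher on KO array 2 and Mitf 1.45-fold, while Tfeb differed by 0.05, which became −0.04 after quantile normalization and −0.14 with arrays centred on the tested genes. Transcript levels do not show how much of these factors was in the nucleus. Among 16 tested genes that control TFEB or sense nutrients at the lysosome, 1 was at least 1.5-fold higher on the WT high-fat array. None was lower, and the median was 0.22. Of all tested genes, 7.72% were higher and 3.82% lower by that mark.

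MiT factors bind the hexamer CACGTG, which forms the centre of the CLEAR element of lysosomal genes. Promoter windows from RefSeq (build GRCm38.p6), running from 250 bases before to 50 after each annotated start site, were at hand for 34 of the 41 genes, with 44 windows. The hexamer reads the same on both strands. It was found in 12 of these 34 genes (35.3%), against 2187 of 27025 genes in the whole table (8.09%). By window, the share was 27.3% among the lysosomal genes and 7.15% among all 32851. The longer form TCACGTG, searched on both strands and always overlapping the hexamer, was in 10 of the 34 genes (29.4%), against 4.29% of all genes. A match is only a description of the sequence. The sequences below run 5′ to 3′ on the strand of the gene, with the hexamer in capitals. Lamp1 is shown because it held 4 hexamers within its window, as 0.0244% of all windows did with 4 or more. Its window is chr8:13158911-13159210, plus strand.
Lamp1: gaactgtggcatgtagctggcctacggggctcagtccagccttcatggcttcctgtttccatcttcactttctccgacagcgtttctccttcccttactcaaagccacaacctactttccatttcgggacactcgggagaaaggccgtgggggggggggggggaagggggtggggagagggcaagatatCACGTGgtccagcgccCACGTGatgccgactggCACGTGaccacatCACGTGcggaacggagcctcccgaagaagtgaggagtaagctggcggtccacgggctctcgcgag
The next stretches are those of the 3 genes that held the hexamer and were at least 1.5-fold higher on the WT high-fat array. They lie at chr16:44139355-44139420 for Atp6v1a, chr13:64370721-64370770 for Ctsl and chr12:102439106-102439171 for Lgmn, all on the minus strand. The Lgmn stretch belongs to 1 of its 2 windows, and the other held none.
Atp6v1a: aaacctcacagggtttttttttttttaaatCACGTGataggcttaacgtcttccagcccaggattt
Ctsl: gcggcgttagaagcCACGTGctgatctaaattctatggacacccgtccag
Lgmn: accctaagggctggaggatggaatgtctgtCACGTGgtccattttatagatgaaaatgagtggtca
Atp6v0e, Ctsa, Ctsf and Glb1 held the hexamer and, like Lamp1, were less than 1.5-fold apart between the diets. Their stretches are not shown. The following are the other genes of this kind. They are Ctsd (chr7:142387890-142387955, minus strand, the nearer of 2 hexamers to the start site), Atp6v0b (chr4:117887312-117887395, minus strand), Atp6v0d1 (chr8:105566032-105566097, minus strand) and Mcoln1 (chr8:3500418-3500509, plus strand).
Ctsd: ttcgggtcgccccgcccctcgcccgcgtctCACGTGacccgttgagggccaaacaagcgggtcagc
Atp6v0b: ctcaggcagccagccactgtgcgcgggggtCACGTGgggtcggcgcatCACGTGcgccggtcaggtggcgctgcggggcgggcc
Atp6v0d1: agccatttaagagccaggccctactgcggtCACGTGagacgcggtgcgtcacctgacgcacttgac
Mcoln1: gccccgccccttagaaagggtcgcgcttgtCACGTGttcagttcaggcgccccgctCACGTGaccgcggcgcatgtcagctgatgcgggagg
The windows of Ctss (chr3:95526536-95526835) and Ctsk (chr3:95498960-95499259), both on the plus strand, are shown because these genes had the largest differences of the 39 between the diets and between the KO arrays. Neither window held the hexamer, which says only that these letters were not in it.
Ctss: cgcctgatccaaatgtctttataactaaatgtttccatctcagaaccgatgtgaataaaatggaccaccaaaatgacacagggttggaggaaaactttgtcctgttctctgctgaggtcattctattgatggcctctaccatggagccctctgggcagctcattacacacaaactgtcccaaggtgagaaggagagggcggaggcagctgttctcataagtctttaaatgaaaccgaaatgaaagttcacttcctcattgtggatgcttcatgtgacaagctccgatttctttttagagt
Ctsk: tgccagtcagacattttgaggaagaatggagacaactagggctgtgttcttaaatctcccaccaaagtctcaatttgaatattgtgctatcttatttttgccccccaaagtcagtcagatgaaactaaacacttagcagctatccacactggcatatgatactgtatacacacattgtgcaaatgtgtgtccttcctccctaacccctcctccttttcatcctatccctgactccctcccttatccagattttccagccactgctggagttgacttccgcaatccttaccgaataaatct

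**Figure D2:**
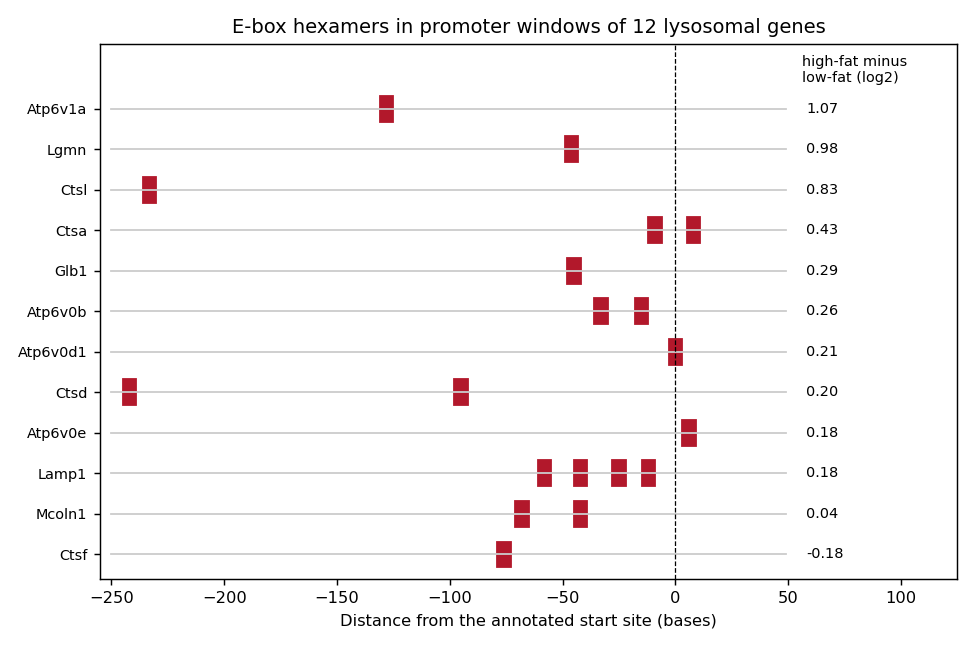
Positions of the hexamer (red boxes) in the promoter windows of the 12 lysosomal genes that hold it, as distance in bases from the annotated start site (dashed line), with each gene's high-fat minus low-fat difference (log2) at the right. Lamp1 has 4 boxes and a difference of 0.18, while Atp6v1a at the top has 1 box and a difference of 1.07.

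Holding the hexamer did not go with a larger difference in these 33 genes with both a window and a level. Of 12 genes with the hexamer, 3 were at least 1.5-fold higher on the WT high-fat array (7.72% of all tested genes). The median difference of the 12 was 0.23. Of 21 genes without the hexamer, 6 were higher by that much, and their median difference was 0.42. Between KO array 2 and KO array 1 the medians were 0.38 with the hexamer and 0.62 without it. These are descriptions with no test, and hexamers further from the start site were not searched.

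The second comparison asks how the diets differed in wild type fat. With 1 array per diet it has no replicate and no test, and the KO arrays, which share genotype and diet, show how far arrays can lie apart. Subunits of the proton pump did not move as a block. Of 15 measured pump genes, the WT high-fat array was at least 1.5-fold higher in 5 and lower in 0, with a median difference of 0.26. The 4 that were at least 2-fold higher were the a1 and a3 subunits of V0 and the A and B2 subunits of V1, which together split ATP. Tcirg1, the a3 subunit known from osteoclasts and macrophages, was at 7.96 and 9.19 on KO arrays 1 and 2 and 9.38 on the WT high-fat array, against 8.09 on the WT low-fat array (2.45-fold between the diets). Atp6v0a1, the a1 subunit, was at 10.06 and 11.12 on the KO arrays and 11.34 on the WT high-fat array, against 10.17 on the WT low-fat array (2.26-fold). For both, KO array 2 and the WT high-fat array were the high arrays, and KO array 1 lay close under the WT low-fat array.

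The V1 sector showed the same split within one complex. Atp6v1a, the catalytic A subunit, was at 9.01 and 10.11 on KO arrays 1 and 2 and 10.36 on the WT high-fat array, against 9.29 on the WT low-fat array (2.10-fold between the diets). Atp6v1b2, the B subunit that alternates with A in the ring, was at 10.03 and 11.22 on the KO arrays and 11.31 on the WT high-fat array, against 10.28 on the WT low-fat array (2.05-fold). The subunits of the stalks and of the collar stayed closer together. Atp6v1c1, the C subunit that joins V1 to V0, was 1.42-fold higher on the WT high-fat array, Atp6v1e1 of the outer stalks 1.11-fold and Atp6v1h, the H subunit, 1.08-fold. Atp6v1f, Atp6v1d and Atp6v1g1 differed by 0.03, −0.12 and −0.21. Atp6v1f had 2 probe sets, with differences of 0.02 and 0.03, and the sign of its difference turned to −0.03 after quantile normalization. Atp6v1g1 also had 2, with −0.23 and −0.21. These 3 subunits had small differences between the KO arrays, at −0.12 for Atp6v1f, 0.11 for Atp6v1d, which became −0.08 with arrays centred on the tested genes, and −0.12 for Atp6v1g1.

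In the V0 sector, Atp6v0b of the proton-carrying ring was 1.20-fold higher on the WT high-fat array, Atp6v0d1, which couples the ring to the central stalk, 1.15-fold, and the small subunit Atp6v0e 1.14-fold. The accessory genes were intermediate. Atp6ap2, also known as the prorenin receptor, was at 8.90 and 9.54 on the KO arrays and 9.74 on the WT high-fat array, against 9.14 on the WT low-fat array, a 1.52-fold difference that lay just past the mark. Atp6ap1 was 1.34-fold higher. A probe set was found for 8 of 9 further pump isoforms, and 4 passed the filter. Atp6v0d2, the d2 isoform known from osteoclasts, stood apart from its partner Atp6v0d1. Its level on KO array 1 lay under the median of all probe sets. It was at 5.23 and 10.17 on KO arrays 1 and 2 and 10.64 on the WT high-fat array, against 6.28 on the WT low-fat array, 20.6-fold higher between the diets. The other 3 differed between the diets by 1.16-fold for Atp6v0a2, 0.93-fold for Atp6v1g2 and 0.92-fold for Atp6v0e2.

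**Figure D3:**
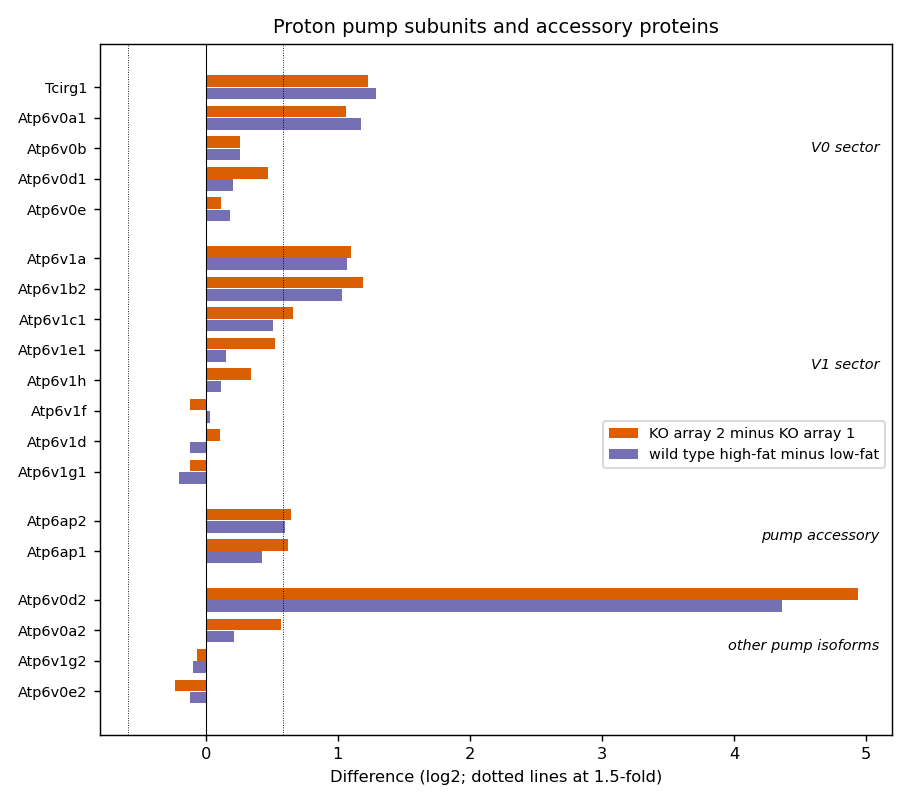
Difference between KO array 2 and KO array 1 (orange) and between the high-fat and low-fat arrays (purple) for 15 pump genes and 4 tested further isoforms, on the log2 scale, with dotted lines at 1.5-fold. Tcirg1, Atp6v0a1, Atp6v1a and Atp6v1b2 lie past 1 on both, Atp6v0d2 past 4 on both, and the other measured subunits of V0 and V1 at 0.66 or less on both.

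Of 10 measured cathepsins, 3 were at least 1.5-fold higher on the WT high-fat array and 0 were lower, with a median difference of 0.46. The shares of all tested genes were 7.72% and 3.82%. Ctss, the cathepsin with which antigen-presenting cells trim the invariant chain, had the largest difference between the diets of the 39 genes. It was at 8.13 and 10.07 on KO arrays 1 and 2 and 10.31 on the WT high-fat array, against 8.47 on the WT low-fat array (3.57-fold). Ctsk, a collagen-cutting cathepsin known from osteoclasts, was at 6.62 and 9.13 on the KO arrays and 9.53 on the WT high-fat array, against 7.77 on the WT low-fat array (3.38-fold). Of the 39 genes, Ctsk had the widest gap between the KO arrays, 5.68-fold. Its level on KO array 1 lay 1.15 under that on the WT low-fat array on the log2 scale. Ctsl, a widely expressed endopeptidase, was at 10.66 and 11.80 on the KO arrays and 11.87 on the WT high-fat array, against 11.04 on the WT low-fat array (1.78-fold). For these 3 genes the WT high-fat array was highest and KO array 1 lowest.

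The other cathepsins differed by less than 1.5-fold between the diets. Ctsz, a carboxypeptidase, was 1.496-fold higher on the WT high-fat array, just short of the mark, Ctsh, an aminopeptidase, 1.41-fold, and Ctsa, a serine carboxypeptidase, 1.35-fold. Ctsd, the main aspartic protease of lysosomes, was at 12.46 and 12.74 on the KO arrays and 12.77 on the WT high-fat array, against 12.57 on the WT low-fat array. It was thus 1.15-fold higher between the diets, on a probe set well above the array medians. Ctsc, which activates serine proteases of immune cell granules, differed by −0.03, Ctso by −0.05 and Ctsf by −0.18. Ctsc nevertheless was 1.54-fold higher on KO array 2 than on KO array 1, at 10.83 and 10.21, and Ctso was 1.58-fold higher.

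Among 7 other lysosomal enzymes, 3 were at least 1.5-fold higher on the WT high-fat array and 0 were lower, with a median of 0.55. The shares of all tested genes were 7.72% and 3.82%. Lgmn, an asparagine-specific protease that also processes cathepsins, was at 9.91 and 10.98 on KO arrays 1 and 2 and 11.15 on the WT high-fat array, against 10.18 on the WT low-fat array (1.97-fold). Gusb, the beta-glucuronidase, was at 8.10 and 9.10 on the KO arrays and 9.20 on the WT high-fat array, against 8.45 on the WT low-fat array (1.68-fold). Asah1, the acid ceramidase, was at 9.51 and 10.29 on the KO arrays and 10.34 on the WT high-fat array, against 9.67 on the WT low-fat array (1.58-fold). All 3 had the same order of arrays as Ctss. The peptidase gene Tpp1 was 1.47-fold higher on the WT high-fat array and the alpha-mannosidase gene Man2b1 1.42-fold. The beta-galactosidase Glb1 and the sialidase Neu1 form a complex with the protein of Ctsa in lysosomes, and these genes differed unequally. Glb1 was 1.23-fold higher on the WT high-fat array, while Neu1, at 7.24 there against 7.31 on the WT low-fat array, differed by −0.07.

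Membrane proteins of the lysosome had small differences, with 0 of 4 at 1.5-fold between the diets and a median of 0.19. Lamp1 and Lamp2, the abundant glycoproteins of the lysosomal membrane, were 1.13-fold and 1.14-fold higher on the WT high-fat array. Lamp1 was at 11.66 and 11.95 on KO arrays 1 and 2 and 11.98 on the WT high-fat array, against 11.80 on the WT low-fat array. Lamp2 was at 11.89 and 12.35 on the KO arrays and 12.28 on the WT high-fat array, against 12.09 on the WT low-fat array. Cd63, a tetraspanin of late endosomes and lysosomes, was 1.36-fold higher on the WT high-fat array. Mcoln1, a calcium channel of the lysosome, differed by 0.04, which became −0.01 after quantile normalization. None of the 4 was 1.5-fold apart between the WT low-fat array and any other, nor between the KO arrays, where Cd63 had the largest fold, 1.40.

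The third comparison describes the spread between the KO arrays, which share genotype, diet and tissue. At least 1.5-fold higher on KO array 2 than on KO array 1 were 19 of 39 genes (14.8% of all tested genes), and 0 were lower (4.45%). By role, these were 7 of 15 pump genes, 6 of 10 cathepsins, 5 of 7 other enzymes, 0 of 4 membrane proteins and 1 of 3 MiT factors. The widest gaps were those of Ctsk (5.68-fold), Ctss (3.85-fold), Tcirg1 (2.35-fold), Atp6v1b2 (2.29-fold) and Ctsl (2.21-fold). Man2b1 at 1.79-fold and Tpp1 at 1.68-fold were among the 8 that passed the mark here but not between the diets, with Ctso, Atp6v1c1, Ctsc, Atp6ap1, Tfec and Ctsz. The median difference was 0.58, and 0.44 relative to all tested genes. The count was 12 with the median difference of all tested genes, 0.14, subtracted from each difference. With each array centred on its own median level over the tested genes, which took 0.19 off each difference, it was 10. Both settings were chosen after the data were seen, and the share of all tested genes under them is not given. The split over all genes was 1674 higher against 503 lower, and with quantile normalization it was 1308 against 689. All 11 genes that were higher on the WT high-fat array were also higher on KO array 2 than on KO array 1, which is 100% of these 11 and 57.9% of the 19. Over all tested genes, 680 were in both sets, 78.0% of those higher between the diets and 40.6% of those higher between the KO arrays, 6.02% of all tested. The differences compared have no array in common. Across the 39 genes, which share arrays and are not independent replicates, the difference between the diets and that between the KO arrays gave Pearson's r = 0.91 and Spearman's rho = 0.85. Over all 11292 tested genes the values were 0.52 and 0.70. High values were not particular to the lysosomal genes. In the other gene lists with at least 6 tested genes, Pearson's r was 0.04 for epididymis markers and 0.86 to 0.99 for the rest.

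**Figure D4:**
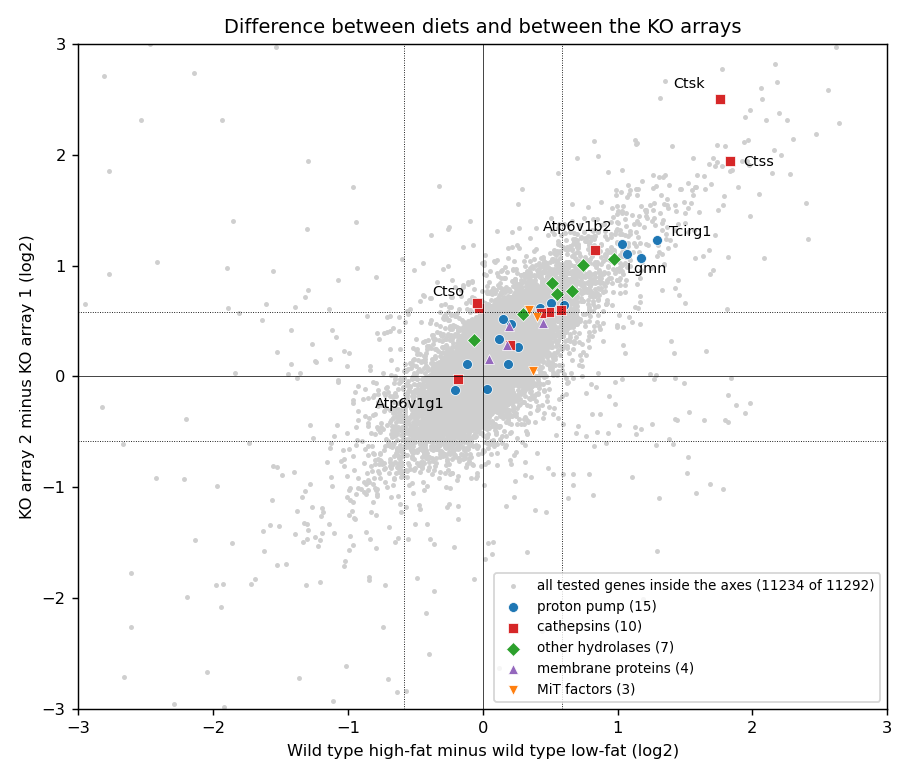
High-fat minus low-fat difference in wild type fat (horizontal, log2) against KO array 2 minus KO array 1 (vertical, log2) for the lysosomal genes, coloured by role, and all tested genes inside the axes in grey. Dotted lines mark 1.5-fold. Ctsk and Ctss lie at the upper right, and the 11 genes right of the vertical 1.5-fold line all lie above the horizontal one.

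KO array 2 and the WT high-fat array were close over all tested genes, and in these genes too, although they differ in genotype and diet. KO array 2 minus the WT high-fat array had a median of −0.07 over the 39 genes and −0.08 over all tested genes. Of the 39 genes, 0 were 1.5-fold apart between them (2.88% of all tested genes), and the widest gap was that of Ctsk, at −0.40 for KO array 2 minus the WT high-fat array. Between KO array 1 and the WT high-fat array, 23 of 39 were 1.5-fold apart (24.8% of all tested genes), with a median of −0.63. Between KO array 1 and the WT low-fat array, 2 of 39 were (6.95%), both lower on KO array 1, and between KO array 2 and the WT low-fat array, 10 (10.1%), all higher on KO array 2. By this count the KO arrays lay further from each other, with 19 of 39, than KO array 2 lay from the WT high-fat array or KO array 1 from the WT low-fat array. The same order held over all tested genes, at 19.3%, 2.88% and 6.95%, so it is not particular to the lysosomal genes.

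Macrophage markers moved with these genes, and their part in the result was not tested. Of 20 listed macrophage markers, 19 were tested. Against the WT low-fat array, 0 of these were 1.5-fold or more higher for KO array 1 (1.93% of all tested genes). The count was 9 for KO array 2 (5.54%) and 12 for the WT high-fat array (7.72%). The summed intensity of the macrophage markers was 12702 and 23835 on KO arrays 1 and 2. It was 26312 on the WT high-fat array, against 15335 on the WT low-fat array. The sum of the 39 lysosomal genes was 40754 and 59968 on the KO arrays and 62905 on the WT high-fat array, against 46877 on the WT low-fat array. Under the median of all probe sets lay 2 macrophage markers for KO array 1, 1 for KO array 2, 0 for the WT high-fat array and 2 for the WT low-fat array. The complement gene C1qb, made by resident macrophages, was at 10.66 and 11.81 on the KO arrays and 12.03 on the WT high-fat array, against 10.99 on the WT low-fat array. Between the diets the macrophage list had a median of 0.71, and 9 of the 39 lysosomal genes lay above it. Those were Ctss, Ctsk, Tcirg1, Atp6v0a1, Atp6v1a, Atp6v1b2, Lgmn, Ctsl and Gusb. Lipid-associated macrophage markers had a median of 1.26 between the diets, with 6 of 8 higher, and −0.22 and 1.01 on KO arrays 1 and 2.

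Among markers of other cell types, those of fibroblasts and matrix had medians of the same signs as the lysosomal genes, and the rest did not. Adipocyte markers had medians within 0.06 of 0 in all 3 comparisons with the WT low-fat array. They had 1 of 10 higher and 0 lower on the WT high-fat array (7.72% and 3.82% of all tested genes). Their summed intensity was 67565 and 68437 on KO arrays 1 and 2 and 68033 on the WT high-fat array, against 67133 on the WT low-fat array. Fibroblast and matrix markers had medians of −0.44 for KO array 1, 0.21 for KO array 2 and 0.31 for the WT high-fat array. On the last, 3 of 13 were at least 1.5-fold higher (7.72% of all tested genes). Their median for KO array 2 minus KO array 1 was 0.55, beside 0.58 for the 39 lysosomal genes. Their part in the result was not tested. Smooth muscle markers had medians of the opposite signs, 0.96, −0.58 and −0.40, but not every marker followed them. Of 9, 6 were at least 1.5-fold higher and 0 lower on KO array 1 (1.93% and 5.02% of all tested genes). On KO array 2, 2 were higher and 4 lower (5.54% and 4.60%). On the WT high-fat array, 1 was higher and 4 were lower (7.72% and 3.82%). Of 12 listed T and NK cell markers, 11 had a probe set and 5 were tested. All 5 were highest on the WT low-fat array (27.9% of all tested genes), with medians of −0.44, −0.13 and −0.30. Under the median of all probe sets lay 2 of the 5 on KO array 1 and 1 on KO array 2. On the WT high-fat array 2 lay under it, and on the WT low-fat array 1, so these differences rest partly on low signal.

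Lysosomal genes outside the 41 were read from fixed lists for comparison. Beside the counts at 1.5-fold between the diets stand 7.72% higher and 3.82% lower over all tested genes. Of 25 tested other lysosomal enzymes and their helpers, 3 were at least 1.5-fold higher on the WT high-fat array and 0 were lower, with a median of 0.34. Psap, the precursor of the saposins that help degrade sphingolipids, was at 12.28 and 12.88 on KO arrays 1 and 2 and 12.91 on the WT high-fat array, against 12.45 on the WT low-fat array. Of 23 tested other membrane and sorting proteins, 7 were higher and 0 lower, with a median of 0.35. Autophagy genes, which form the vesicles that deliver cell contents to lysosomes, had 2 of 16 higher and 0 lower, with a median of 0.06 that became −0.02 after quantile normalization. The autophagy gene Gabarap lay between 12.44 and 12.48 on all 4 arrays. No tested gene of the lists of other pump subunits, enzymes, membrane proteins, TFEB control and autophagy passed the limma test between KO and wild type fat on the low-fat diet, at an adjusted or an unadjusted p under 0.05.

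**Figure D5:**
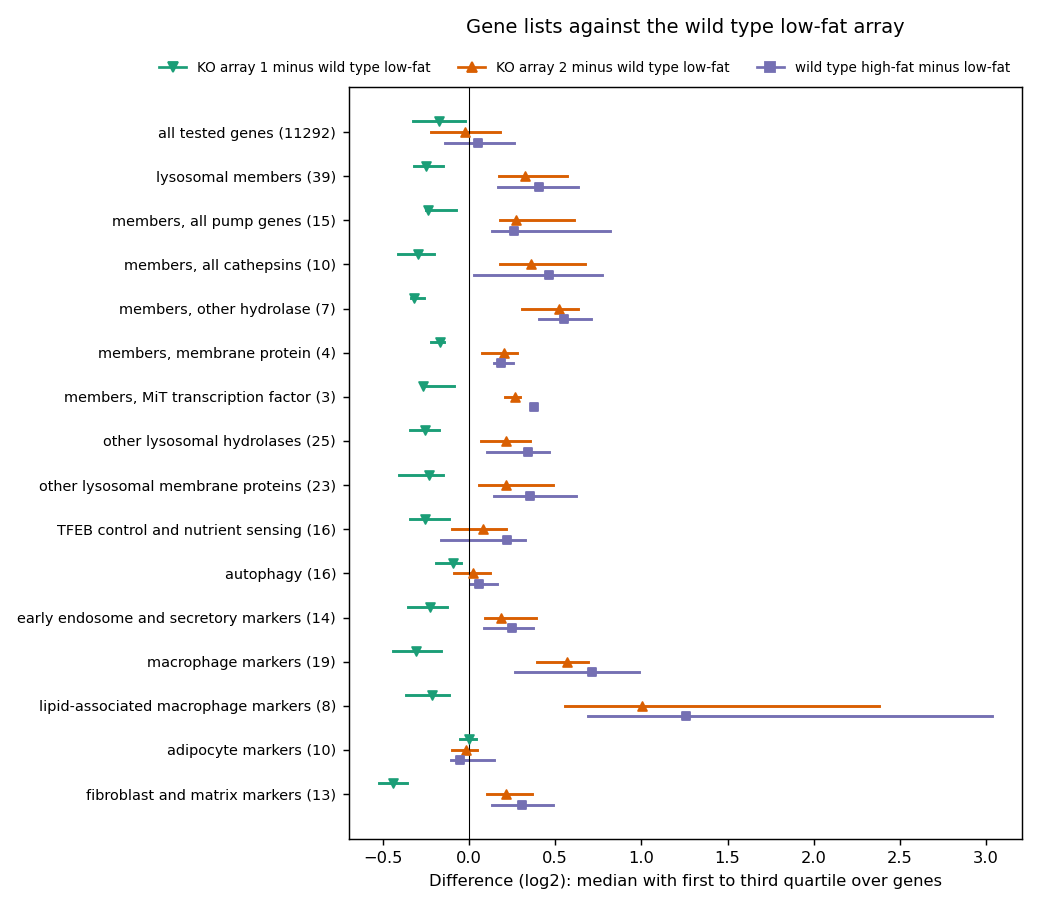
Median difference from the WT low-fat array (symbol) with a line from the lower to the upper quartile over genes, on the log2 scale, for KO array 1, KO array 2 and the WT high-fat array, with the number of tested genes in parentheses. The lysosomal genes have medians of −0.25, 0.32 and 0.40, between those of all tested genes and those of the macrophage markers on KO array 2 and the WT high-fat array, while adipocyte markers stay within 0.06 of 0.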

How the data were processed

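Epididymal fat was measured on 4 whole-transcript arrays, each from 100 ng of RNA pooled per group. The deposited values are 1 intensity per probe set on a linear scale, which the authors summarized with RMA in R 2.15.0, according to the submitters' processing notes. Their genome build is not given in the sources used here. Here log2 was taken, with no other background correction or scaling. Of 35556 probe sets, 21218 had 1 gene symbol and were used, and per gene the one with the highest mean was kept. Genes with a mean level at or above the 40th percentile were tested. KO and wild type were compared with limma 3.58.1 in R 4.3.3, with 1 mean per group, 1 residual degree of freedom and 4.62 prior degrees of freedom, two-sided, with Benjamini-Hochberg adjustment over all tested genes. The lone wild type arrays were thereby assumed to vary like the KO pair, and the number of arrays limits the precision. Other comparisons were by size, at 1.5-fold. Alternatives were the filter, the probe set rule, the scaling and each KO array left out. The steps were tested on simulated data. Named genes are all measured members, Cd1d1, all tested further pump isoforms and, from each other list, genes among the 3 with the highest mean level. The members and lists were chosen with earlier results of these data known. Figures used matplotlib 3.10.9 in Python 3.11.15.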

Additional observations from a re-analysis of the deposited data

How the results depend on the processing

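The limma count over all genes, 5 in the main analysis, was 0 with no level filter, 3 with the mean of all probe sets, 1 with arrays centred on their median over all probe sets, 3 after quantile normalization and 92 at an unadjusted p under 0.05, and the cause was not tested. The count of lysosomal genes past limma stayed 0 under each of these and with an intensity trend. Without 1 KO array, the median difference of KO from the WT low-fat array ranged from −0.25 to 0.32, the number higher by 1.5-fold from 0 to 10 and the number lower from 0 to 2. At 2-fold, 6 genes were higher between the diets and 9 between the KO arrays, by the stricter mark. Shares of all tested genes at 2-fold and under the 2 settings that follow are not given, so these counts lack a background. By 2 settings chosen after the data were seen, 10 genes were higher between the KO arrays with each array centred on its median over the tested genes, and 12 with the median difference of all tested genes subtracted. Of 156 differences of single lysosomal genes, 144 moved by less than the spread of the KO pair under quantile normalization, and 0 differences of at least 1.5-fold changed sign. The spread used was each gene's own SD over the KO pair. It was wide for genes that differed most, such as Ctsk (1.77) and Ctss (1.38), so this rule could hardly mark them as moved. No paired analysis was possible because the wild type arrays carry no replicate number. Precision is limited by 1 array for each wild type group and 2 for KO.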

Other observations

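Genes of the secretory pathway and early endosomes, a list taken to stand beside the lysosomal one, had a median of 0.55 for KO array 2 minus KO array 1, beside 0.58 for the 39 lysosomal genes. By size, 3 of 14 were at least 1.5-fold higher and 0 lower, beside 19 of 39 lysosomal genes and 14.8% of all tested genes. The difference between the lists was not tested. Between the diets the median of these genes was 0.25, with 0 of 14 at 1.5-fold. Calr, the chaperone calreticulin of the endoplasmic reticulum, was at 11.17 and 12.00 on KO arrays 1 and 2 and 11.90 on the WT high-fat array, against 11.54 on the WT low-fat array. Canx, the related membrane chaperone calnexin, was at 11.30 and 11.88 on the KO arrays and 11.85 on the WT high-fat array, against 11.67 on the WT low-fat array. Copa, a coat protein of vesicles that return from the Golgi, was at 10.84 and 11.47 on the KO arrays and 11.54 on the WT high-fat array, against 11.17 on the WT low-fat array. These differences have no test, since they are between arrays of 1 group or between single arrays.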
